A study of Mus musculus with 6 samples.

Results

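The 9 genes described here encode transcription factors that set or maintain macrophage identity: Spi1, Cebpa, Cebpb, Runx1, Irf4, Irf5, Irf8, Maf and Zeb2. Their rows were picked out by gene symbol, and all 9 were found among the 43432 genes of the deposited table. The RNA came from macrophages sorted from the mammary glands of female mice of the FVB/N strain that carry the MMTV-PyMT transgene, which expresses a viral oncoprotein, polyomavirus middle T, in mammary epithelium from the promoter of a mouse mammary tumour virus. The tested age was 11 weeks (3 libraries), set against 8 weeks (3 libraries). All mice carried the transgene and the labels name no treatment, so the groups include no tumour-free gland, and the contrast is one of age within 1 tumour model, named early against late in the series' design text.

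Macrophage identity rests on a small number of DNA-binding proteins that act together. PU.1, the product of Spi1, is an ETS factor that opens enhancers in all macrophages and must be present for the lineage to form. C/EBP factors and RUNX1 act with it in the step from progenitor to monocyte, and interferon regulatory factors bind beside it, among them IRF8 in monocytes and IRF4 and IRF5 in activated cells. The MAF protein c-MAF and ZEB2 act in the mature cell, where c-MAF favours interleukin 10 production and ZEB2 helps tissue macrophages keep their tissue-specific identity.

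None of the 9 factors differed between 11 and 8 weeks beyond the spread between libraries. By limma, which was fitted to log2(normalized count + 1) of 21675 genes, 0 of 9 passed an adjusted p of 0.05, where 0.0507% of all tested genes did (0.0369% higher and 0.0138% lower at 11 weeks). At an unadjusted p under 0.05 the count was also 0 of 9, against 8.03% of all genes. Values overlapped between the ages in all 9, while 11.9% of tested genes did not overlap. The log2 fold changes ran from -0.24 (Runx1) to 0.01 (Spi1), with a median of -0.14 beside 0.05 for all tested genes, and 8 of 9 were below 0, as were 47.1% of tested genes. The 95% interval of the change lay within a 2-fold change in either direction for 8 of the 9 factors, all but Cebpb.

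The libraries held 38784433 to 75004879 recovered reads, and the member with the fewest, Cebpb, had 379 to 797 reads per library. The totals include mitochondrial rRNA, whose share was 44.2% to 48.6% at 11 weeks and 35.2% to 51.8% at 8 weeks. A normalized count is a read count divided by 1 scaling factor per library. The labels set the 3 samples of an age apart as an1 to an3, with no statement that they are 3 animals. The p-values here set the difference between the ages against the spread between these samples, and that spread could be technical. Macrophage markers summed to 783685 to 892723 normalized counts at 11 weeks and 751685 to 948354 at 8 weeks, and all 11 were detected. Most of each sum was Lyz2, at 411885 to 623180, so the sums say little about the other markers. Of the 11, 6 had a positive log2 fold change and 0 passed. In 5 of the 11 the ages did not overlap, beside 11.9% of all tested genes. By limma at an unadjusted p under 0.05, 3 were higher and 2 lower at 11 weeks, beside 8.03% of all tested genes in either direction. The sort took live CD45+, MHC class II+ and CD14+ cells, a gate that can also admit some dendritic cells and monocytes. In a bulk sample of sorted cells, fewer cells of a type and less RNA per cell cannot be told apart.

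The 150 bases upstream of the gene start (the more upstream of the RefSeq start and the deposited one) are shown for 5 members: Irf4 and Runx1, each the other's nearest member in profile over the libraries, Cebpa and Irf8, which were likewise nearest to each other, and Zeb2, the most abundant of the 9. RefSeq promoter windows of the GRCm38.p6 build were matched by symbol to 7 of the 9 members, that is, not to Spi1 and Maf. Capitals mark exact matches, on either strand, to a short motif of one of the 9 factors.
Irf4 (chr13:30749076-30749225, plus strand): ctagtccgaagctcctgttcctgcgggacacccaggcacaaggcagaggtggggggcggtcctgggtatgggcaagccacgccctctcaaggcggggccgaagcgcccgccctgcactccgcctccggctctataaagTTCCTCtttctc
Runx1 (chr16:92826150-92826299, minus strand): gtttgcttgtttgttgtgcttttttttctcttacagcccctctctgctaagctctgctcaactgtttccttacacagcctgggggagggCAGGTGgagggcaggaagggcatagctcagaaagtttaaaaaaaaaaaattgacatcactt
Cebpa (chr7:35119143-35119292, plus strand): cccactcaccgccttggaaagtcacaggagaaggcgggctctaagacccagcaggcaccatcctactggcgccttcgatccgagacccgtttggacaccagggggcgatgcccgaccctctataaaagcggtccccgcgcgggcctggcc
Irf8 (chr8:120736208-120736357, plus strand): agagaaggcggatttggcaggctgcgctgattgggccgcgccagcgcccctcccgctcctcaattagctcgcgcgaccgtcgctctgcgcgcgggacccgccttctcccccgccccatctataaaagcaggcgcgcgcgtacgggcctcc
Zeb2 (chr2:45117443-45117592, minus strand): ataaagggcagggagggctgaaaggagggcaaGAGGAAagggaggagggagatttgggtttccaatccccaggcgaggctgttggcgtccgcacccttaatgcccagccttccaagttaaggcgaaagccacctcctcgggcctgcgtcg

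The motifs searched were GAGGAA (PU.1 and other ETS factors), TTGCNNAA (C/EBP), TGTGGT (RUNX), CAGGTG (the E-box that ZEB factors bind), TGCTGA (the core of a MAF site), and the interferon response element (GAAA, any 2 bases, GAAA). Both strands were searched, and none of these motifs contains another. Irf4 and Zeb2 each held 1 match to GAGGAA, in Irf4 on the other strand and ending 6 bases before the gene start. Of all 32851 promoter windows of 150 bases, 14.5% held this motif. Runx1 held 1 match to CAGGTG, a motif found in 10.6% of windows. The windows of Cebpa and Irf8, and those of Cebpb and Irf5, which are not printed, held none of the 6 motifs. The C/EBP motif occurred in 5.46% of all windows, the RUNX motif in 8.4%, the MAF motif in 10.1% and the interferon response element in 1.59%. A match is letters in a window, not a site shown to be bound.

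Positions are those the deposited table gives (GRCm38), and each value is 1 total per gene. Spi1 (ENSMUSG00000002111) lies on the plus strand of chromosome 2 from 91082390 to 91115756. It was at 5824, 4985 and 3852.9 normalized counts in the 11-week libraries (replicates 1, 2 and 3), against 4784.5, 4013.4 and 5710.5 in the 8-week libraries. The highest and the lowest of the 6 values both came from 11 weeks, so the ages overlapped fully. Spi1 averaged 4887 ± 989 normalized counts in the 11-week libraries and 4836 ± 849.7 in the 8-week libraries (SD, n = 3 each). Its log2 fold change was 0.01 ± 0.23 (SE; limma adjusted p = 0.992), with a 95% interval of -0.47 to 0.49, or 0.722-fold to 1.4-fold.

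Cebpa (ENSMUSG00000034957), which encodes the C/EBP protein that starts the granulocyte and monocyte programme in progenitors, lies on the plus strand of chromosome 7 from 35119293 to 35121926. It was at 2524, 3167.4 and 1930.5 normalized counts in the 11-week libraries, against 2845.2, 2576.8 and 2979.1 in the 8-week libraries. The 8-week values sat inside the range of the 11-week values. The log2 fold change of Cebpa was -0.17 ± 0.25 (SE; limma adjusted p = 0.863), with a 95% interval of -0.70 to 0.36.

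Cebpb (ENSMUSG00000056501), the C/EBP gene that is induced in inflammation and takes part in alternative activation, lies on the plus strand of chromosome 2 from 167688915 to 167690418. It was at 732.8, 382.1 and 562.8 normalized counts in the 11-week libraries, against 651.8, 828.5 and 393.7 in the 8-week libraries. Low and high libraries occurred at both ages, and the spread within an age, 31.4% of the mean at 11 weeks and 35% at 8 weeks, was the widest of the 9 members when both ages are counted. The log2 fold change was -0.14 ± 0.42 (SE; limma adjusted p = 0.936), and its 95% interval, -1.03 to 0.74, was the only one that reached past a 2-fold change. In a GRCm38 annotation, exons of Tmem189 on the opposite strand cover 20.7% of the Cebpb exon bases. Tmem189 was at 1996.3 to 3813.9 normalized counts, and no source used here states whether strand was used in counting, so reads of the shared stretch cannot be assigned with certainty.

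Runx1 (ENSMUSG00000022952), a factor of blood stem cell formation that binds DNA with its partner CBF beta, lies on the minus strand of chromosome 16 from 92601466 to 92826149. It was at 6329.7, 5429.5 and 8495.2 normalized counts in the 11-week libraries, against 7220.5, 8366.3 and 7955.1 in the 8-week libraries. The first and the second 11-week libraries lay below all 8-week libraries and the third lay above them. Its log2 fold change, -0.24 ± 0.20 (SE; limma adjusted p = 0.805), was the largest in size of the 9, with a 95% interval of -0.67 to 0.19. Without 11-week replicate 3 it was -0.42, with an unadjusted limma p of 0.0358 and an adjusted p of 0.702.

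Irf4 (ENSMUSG00000021356) lies on the plus strand of chromosome 13 from 30749226 to 30766927 and encodes a regulator of alternative macrophage activation, of one group of dendritic cells and of plasma cells. It was at 3065.6, 2522.2 and 3974.3 normalized counts in the 11-week libraries, against 3674.4, 2952.2 and 4224.4 in the 8-week libraries. The lowest of the 6 values was from 11 weeks and the highest from 8 weeks, with the others interleaved. The log2 fold change of Irf4 was -0.19 ± 0.24 (SE; limma adjusted p = 0.839), with a 95% interval of -0.71 to 0.33.

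Irf5 (ENSMUSG00000029771), which drives inflammatory cytokine genes, lies on the plus strand of chromosome 6 from 29526625 to 29541869. It was at 2622.4, 2975.9 and 2074.6 normalized counts in the 11-week libraries, against 3137.7, 2903.8 and 2435 in the 8-week libraries. The lowest value was from 11 weeks and the highest from 8 weeks, and the middle values were mixed. For Irf5 the log2 fold change was -0.15 ± 0.24 (SE; limma adjusted p = 0.876), with a 95% interval of -0.67 to 0.36. Exons of Tnpo3 on the opposite strand cover 14.1% of its exon bases, and Tnpo3 was at 1681.7 to 2129.2 normalized counts.

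Irf8 (ENSMUSG00000041515), the interferon regulatory factor of monocytes and of dendritic cells specialised in cross-presentation, lies on the plus strand of chromosome 8 from 120736358 to 120756694. It was at 2896.4, 3548.5 and 1822.7 normalized counts in the 11-week libraries, against 2478.7, 2792.9 and 2921 in the 8-week libraries. The SD was 31.6% of the mean at 11 weeks and 8.33% at 8 weeks, and both extremes were from 11 weeks. The log2 fold change was -0.04 ± 0.27 (SE; limma adjusted p = 0.977), with a 95% interval of -0.60 to 0.53. Without 11-week replicate 3 it was 0.23 (limma adjusted p = 0.846).

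Maf (ENSMUSG00000055435), the gene of c-MAF, lies on the minus strand of chromosome 8 from 115682942 to 115707794. It was at 11123.9, 9369.1 and 10081.3 normalized counts in the 11-week libraries, against 9417.5, 9277.9 and 13397.4 in the 8-week libraries. All 11-week values lay inside the 8-week range, which was set at its upper end by replicate 3. For Maf the log2 fold change was -0.05 ± 0.19 (SE; limma adjusted p = 0.951), with a 95% interval of -0.46 to 0.35.

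Zeb2 (ENSMUSG00000026872) lies on the minus strand of chromosome 2 from 44983634 to 45117395. It was at 74556.2, 61994.2 and 49997.9 normalized counts in the 11-week libraries, against 64514.3, 57631.7 and 71444.4 in the 8-week libraries. Again the highest and the lowest library were both from 11 weeks. The log2 fold change was -0.07 ± 0.15 (SE; limma adjusted p = 0.917), and the 95% interval, -0.39 to 0.25 or 0.764-fold to 1.19-fold, was the narrowest of the 9. Zeb2os, an antisense gene that overlaps Zeb2, was at 104.8 to 987.3 normalized counts, a small amount beside Zeb2 itself. Which strand the reads counted to Zeb2os came from cannot be said with certainty.

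**Figure D1:**
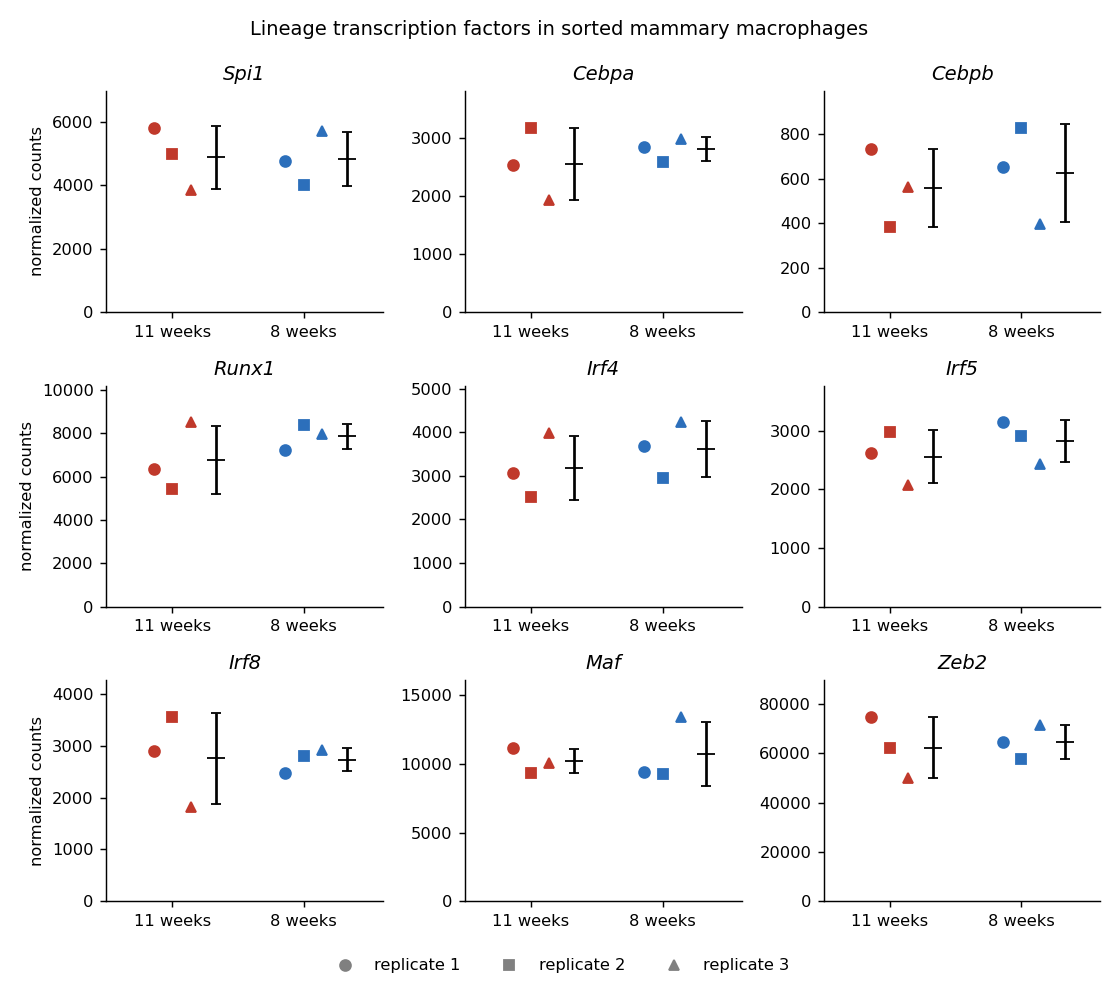
Normalized counts (y axis, starting at 0) of each of the 9 factors in 3 libraries at 11 weeks (red) and 3 at 8 weeks (blue); marker shape gives the replicate, and black bars are mean and SD. In each panel the ages overlap, and 11-week replicate 3 is the lowest library in 5 panels.

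The intervals were narrower than for most genes of the table. Their median width was 1.03 on the log2 scale, against 1.65 among tested genes whose mean reached 100 normalized counts, of which 37.5% had an interval within a 2-fold change. The median size of the change was 0.14 for the 9 members and 0.32 for those genes. The members are of moderate to high abundance, and an interval within a 2-fold change does not show that a smaller change is absent. In the authors' deposited table the adjusted p of the 9 members was 0.791 to 0.994, where 1.91% of genes with an adjusted p were under 0.05. The authors' log2 fold changes there were -0.201 (Runx1) to 0.014 (Spi1). On the recovered reads, edgeR, DESeq2 and limma-voom each called 0 of 9 at an adjusted p of 0.05 and 0 of 9 at an unadjusted p of 0.05. By adjusted p they called 0.0201%, 2.63% and 0.0537% of the genes that each gave an adjusted p (14893, 15874 and 14893). By unadjusted p they called 8.55%, 10% and 9.33% of the genes that each gave a p (14893, 21337 and 14893).

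**Figure D2:**
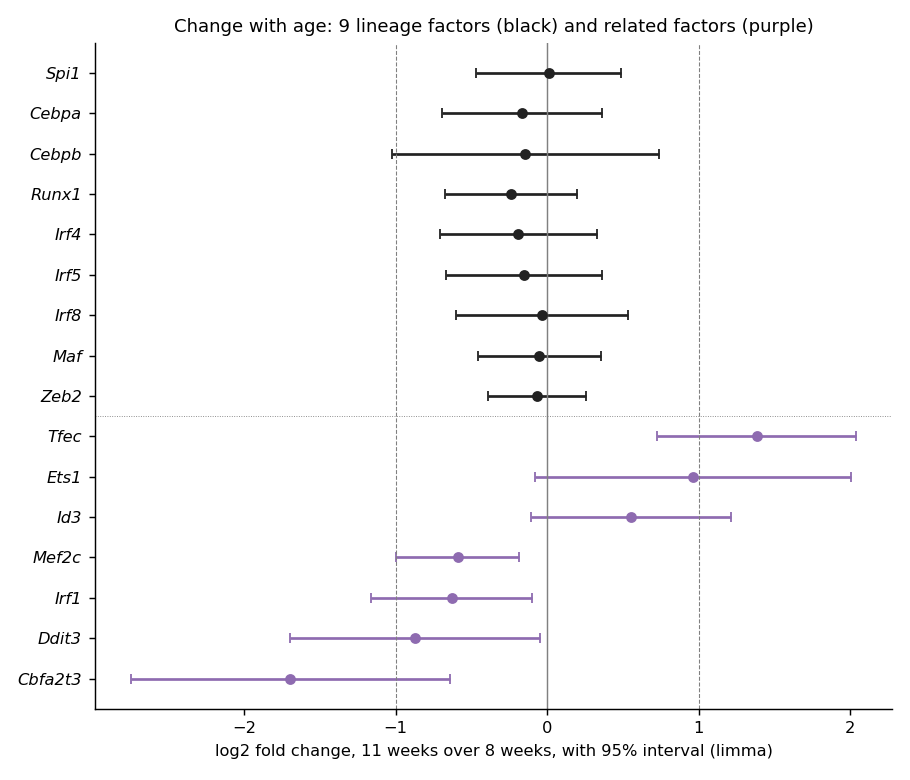
log2 fold change of 11 weeks over 8 weeks with its 95% interval from limma (x axis) for the 9 factors (black, above the dotted line) and 7 related factors (purple). Dashed lines mark a 2-fold change; the members lie between -0.24 and 0.01, whereas Tfec lies at 1.38 and Cbfa2t3 at -1.70, none with an adjusted p under 0.05.

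Differences between libraries of one age were larger than the difference between ages. Across the 6 libraries the highest value was 1.44 times (Maf) to 2.17 times (Cebpb) the lowest. In 11-week replicate 3, 5 of the 9 members (Spi1, Cebpa, Irf5, Irf8 and Zeb2) had their lowest value and 1 (Runx1) its highest. In 11-week replicate 2, 3 members (Cebpb, Irf4 and Runx1) had their lowest value and 2 (Cebpa and Irf8) their highest. Those libraries thus lay at opposite ends for Irf8 and for Runx1: on the log2 scale, relative to the mean of all 6 libraries, Irf8 was at -0.56 in replicate 3 and 0.40 in replicate 2, while Runx1 was at 0.24 and -0.41.

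Several other transcripts stood apart in 11-week replicate 3. Itgam, which encodes the integrin CD11b of myeloid cells, was at 17029.4 normalized counts there and at 38460.4 to 50154.3 in the others. Summed B and plasma cell markers were at 1627 there and at 335.7 to 1007.8 in the others, led by Sdc1, which mammary epithelium also expresses. The epithelial genes Epcam and Krt8 had their highest values in that library, 1370.4 and 474.9 normalized counts, whereas the epithelial sum was higher in 11-week replicate 1 (46187.3, beside 37314.3 in replicate 3). Summed markers of dendritic cells (5127.3) and of T and NK cells (3472.2) were within the range of the other libraries there. Most of these sums was Cd209a (3680.7) and Cd4 (1909.7), respectively. Summed fibroblast and endothelial markers were highest there (3694.2, beside 722.5 to 2596.7 in the others). Summed neutrophil markers, at 3454.1, were little above those of the other 11-week libraries (2972.7 and 3255). Of these markers, Ltf was highest there (1525.4 normalized counts). S100a9, the most abundant, had its lowest 11-week value there (1051.4, beside 1191.6 and 1522.2). Runx1 is also expressed in mammary epithelium, T cells and NK cells, and Irf4 in B and plasma cells. The part of those cells in the values of this library was not tested.

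Among the 36 pairs of members, profiles over the 6 libraries were compared by the root mean square difference of centred log2 values, in which 0 means the same profile. Spi1 and Zeb2 had the smallest difference, 0.0714, beside a median of 0.337 over all pairs. Only 5 of 10726 genes whose mean reached 100 normalized counts were nearer to Spi1 than Zeb2 was. Next came Cebpa and Irf8 (0.143), whereas Irf4 was nearest to Runx1 (0.19). Those last differed most in 8-week replicate 2, at -0.18 for Irf4 and 0.21 for Runx1 relative to the mean of the 6 libraries on the log2 scale. Cebpb differed from all others by at least 0.407, and the widest difference of all, 0.587, was that between Cebpb and Irf8. With 6 libraries and 10718 other genes close matches occur for every member, and the values are a description.

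The gene outside the 9 that was most alike was Dctn4 for Spi1 (root mean square difference 0.0233), Scamp2 for Zeb2 (0.052), Tm9sf2 for Cebpa (0.045) and Tmed9 for Irf8 (0.0434). It was Rpl41 for Irf5 (0.0378), Siva1 for Irf4 (0.0539), Rad51d for Runx1 (0.0436), Ap3d1 for Maf (0.0603) and 4930533B01Rik for Cebpb (0.104).

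**Figure D3:**
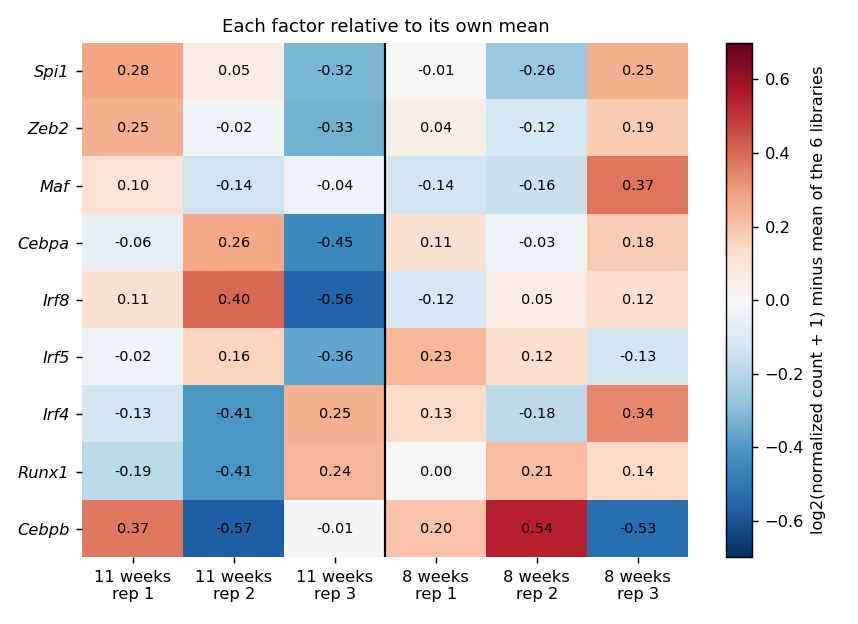
Heat map of log2(normalized count + 1) of each factor (rows) minus its mean over the 6 libraries (columns, 11 weeks left of the black line), with the value written in each cell. Blue cells in 11-week replicate 3 are those of Spi1, Zeb2, Cebpa, Irf8 and Irf5, while Irf4 and Runx1 are red there, at 0.25 and 0.24.

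Levels of different genes were compared as normalized counts per kilobase of merged exons from a GRCm38 annotation. Zeb2 had the highest level, 3118 ± 616 per kilobase at 11 weeks and 3236 ± 346 at 8 weeks (SD, n = 3 each). Spi1 followed with 1813 ± 367 at 11 weeks and 1794 ± 315 at 8 weeks, and the lowest Zeb2 library, at 2507, lay above the highest Spi1 library, at 2161. After them came Maf, with 1237 ± 107 at 11 weeks and 1298 ± 284 at 8 weeks. With merged exons, Zeb2 was the only member whose range over the 6 libraries did not overlap that of the next below it. With the longest transcript, Maf also stood clear of Runx1 below it. With coding length, so did Maf of Spi1, Runx1 of Irf4 and Irf5 of Cebpb.

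Cebpa and Irf5 were at 964 ± 235 and 880.4 ± 156 normalized counts per kilobase at 11 weeks and 1062 ± 77.7 and 973 ± 123 at 8 weeks, and Cebpa was the higher in 4 of 6 libraries. Irf4 and Runx1 were at 650.1 ± 149.6 and 561 ± 131 per kilobase at 11 weeks and 738 ± 130.1 and 653 ± 48.3 at 8 weeks. Lowest were Cebpb, at 372 ± 117 and 415 ± 145, and Irf8, at 391 ± 124 and 387 ± 32.3 per kilobase at 11 and 8 weeks, which overlapped and changed places between libraries. Even these lay above 80.2% of 21438 tested genes per kilobase in every library, and Zeb2 lay above 98.1%. The order below Zeb2 rests on the length used. Runx1 took place 4 instead of 7 with the longest transcript or coding length. Maf took place 2 before Spi1 with coding length, and Zeb2 had place 1 with each. Merged exon lengths include bases shared with opposite-strand exons, 20.7% of those of Cebpb and 14.1% of those of Irf5. The effect of those bases on the order was not tested.

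**Figure D4:**
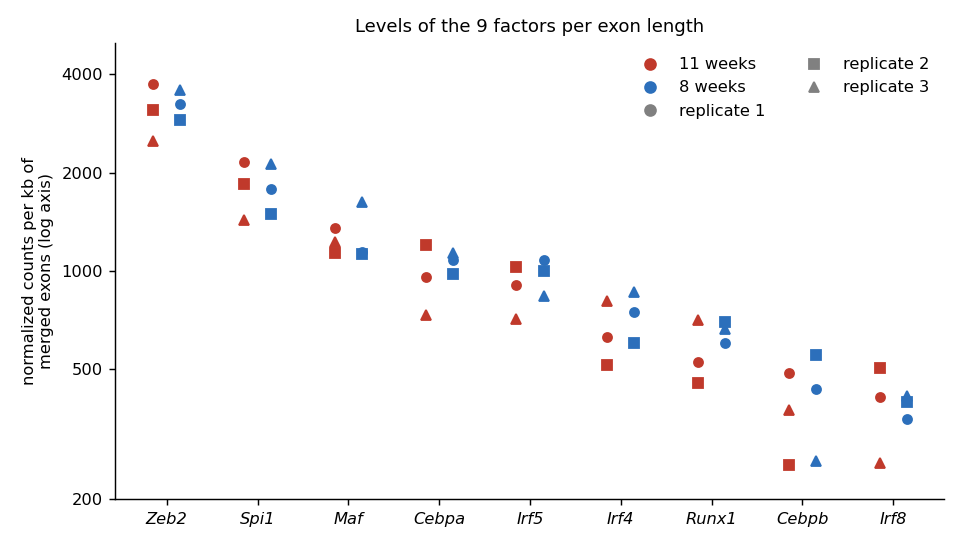
Normalized counts per kilobase of merged exons (y axis, log scale) of the 9 factors, ordered by their mean, in libraries at 11 weeks (red, left) and 8 weeks (blue, right); marker shape gives the replicate. Zeb2 stands above the others in every library, and the remaining neighbours overlap.

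Ratios of related factors within a library do not depend on the scaling between libraries, and 3 were compared. The Irf8 to Irf4 ratio of normalized counts was 0.945, 1.41 and 0.459 in the 11-week libraries, against 0.675, 0.946 and 0.691 in the 8-week libraries. Replicates 2 and 3 of 11 weeks thus held the highest and the lowest ratio of all. The difference in mean log2 ratio was 0.16 (exact two-sided permutation test, p = 0.9, adjusted p = 1 over 3 ratios, smallest p possible 0.1).

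The Cebpb to Cebpa ratio was 0.29, 0.121 and 0.292 in the 11-week libraries, against 0.229, 0.322 and 0.132 in the 8-week libraries, a log2 difference of 0.02 (exact permutation p = 1). The Irf8 to Irf5 ratio was 1.1, 1.19 and 0.879 in the 11-week libraries, against 0.79, 0.962 and 1.2 in the 8-week libraries, a log2 difference of 0.11 (exact permutation p = 0.7). Adjusted p was 1 for each ratio, and the ages overlapped in all 3. Each difference changed sign when 1 library was left out.

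**Figure D5:**
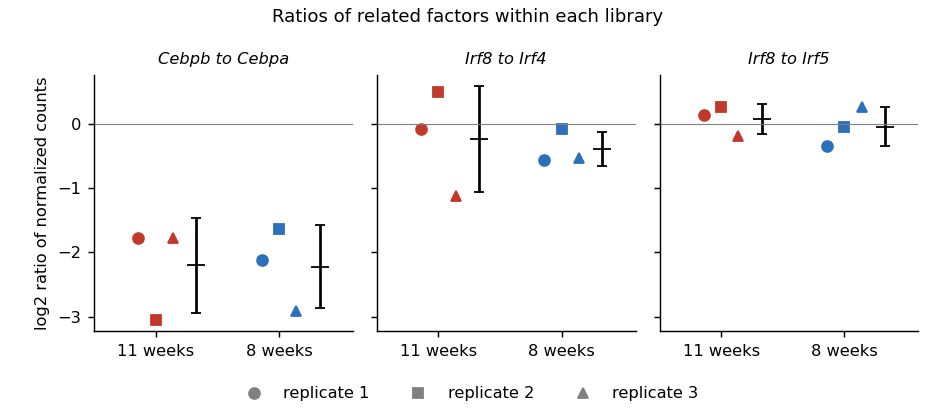
log2 ratio of normalized counts of 2 related factors within each library (y axis) at 11 weeks (red) and 8 weeks (blue), with mean and SD in black; marker shape gives the replicate. The ages overlap in each panel, and the Irf8 to Irf4 ratio spreads most widely at 11 weeks, from -1.12 to 0.49.

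Relatives and partners of the 9 factors were described by lists, and by limma 0 genes of any of these lists passed an adjusted p of 0.05. Among the other interferon regulatory factors, 3 of 6 had a positive log2 fold change and the median was -0.02. Irf1, which is induced by interferon gamma and activates antigen presentation genes, was at 2261, 1682.5 and 2702.7 normalized counts in the 11-week libraries, against 3236.6, 3869.4 and 3048.3 in the 8-week libraries. All 11-week values lay below all 8-week values, but the log2 fold change of -0.63 ± 0.25 (SE) had a limma adjusted p of 0.533.

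Of the other C/EBP genes and Ddit3, 1 of 5 was positive, with a median of -0.21. Ddit3, which encodes the stress-induced C/EBP partner CHOP, averaged 595 ± 206 normalized counts in the 11-week libraries and 1111 ± 481 in the 8-week libraries (SD, n = 3 each; limma adjusted p = 0.603). ETS relatives of PU.1 had 8 of 12 positive and a median of 0.19. Ets1, an ETS factor best known in lymphocytes and endothelium, had the smallest p of them, at 0.96 ± 0.49 in log2 fold change (SE, with limma adjusted p = 0.658).

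In the MAF and MITF-TFE families 5 of 7 tested genes were positive, with a median of 0.39, and Mafa and Nrl were at 0 in every library. Tfec, a member of the MITF-TFE family restricted to the myeloid lineage, was at 2478, 1766.2 and 2428.1 normalized counts in the 11-week libraries, against 922.8, 594.3 and 1089.8 in the 8-week libraries. Every 11-week value exceeded every 8-week value. Its log2 fold change of 1.38 ± 0.31 (SE) had a limma adjusted p of 0.157, and DESeq2 called it (adjusted p = 0.00167).

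RUNX relatives and their partners had 3 of 6 positive and a median of -0.42. Cbfa2t3, which encodes the corepressor ETO2, was at 177.5, 256.1 and 412.4 normalized counts in the 11-week libraries, against 814.1, 475.2 and 1659.5 in the 8-week libraries. The ages did not overlap, the log2 fold change was -1.70 ± 0.50 (SE; limma adjusted p = 0.31), and DESeq2 called it (adjusted p = 0.0251). Partners of ZEB2 (Zeb1, the ID proteins and the E proteins) had 4 of 7 positive and a median of 0.07. Id3, an inhibitor of E proteins that Kupffer cells need, averaged 1206 ± 146 normalized counts in the 11-week libraries and 829.9 ± 161 in the 8-week libraries (SD, n = 3 each; limma adjusted p = 0.701).

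Of 25 other regulators of macrophage identity or activation, 16 were positive, with a median of 0.06. Mef2c, a MADS-box factor of myeloid cells and muscle, was at 5351.4, 6409.4 and 5644.7 normalized counts in the 11-week libraries, against 9772.3, 7537.8 and 8981.7 in the 8-week libraries. The values did not overlap, and the log2 fold change was -0.59 ± 0.19 (SE; limma adjusted p = 0.403). Of 25 genes listed as macrophage target genes, 16 were positive and the median was 0.13. Whether each of them needs the 9 factors was not tested. By limma at an unadjusted p under 0.05, 5 were higher and 1 lower at 11 weeks, beside 8.03% of all tested genes. In 6 of the 25 the ages did not overlap, beside 11.9% of tested genes. Most of the macrophage markers summed above are also in this list. Cd14 had the smallest p of the 25 (log2 fold change 0.63 ± 0.15 (SE), limma adjusted p = 0.198, DESeq2 adjusted p = 0.0348). CD14 protein was itself part of the sort.

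Regulators of other lineages were low. Those of progenitors and granulocytes summed to 101.2 to 144.2 normalized counts at 11 weeks and 63.8 to 312.6 at 8 weeks, with Hoxa9 at 0 throughout, and 3 of 7 tested genes had a positive log2 fold change. Their median was -0.73, or -0.35 with the 4 genes at 0 in one age set at the bound of 3 reads over that age. Gata2, of progenitors and mast cells, was at 31.3, 9.1 and 0.9 normalized counts in the 11-week libraries and at 0 in all 8-week libraries (limma adjusted p = 0.58). Those of lymphocytes summed to 3100.4 to 3538.1 at 11 weeks and 2363.5 to 4086.4 at 8 weeks, most of it Prdm1, which macrophages also express. Of 11 tested lymphocyte regulators 7 were positive, with a median of 1.22, also with Bcl11b, at 0 at 8 weeks, at its bound for 3 reads over an age. Gata3, a factor of T cells and also of luminal mammary epithelium, was at 294.2, 132.1 and 335.3 normalized counts in the 11-week libraries, against 28.5, 20.8 and 75.2 in the 8-week libraries (limma adjusted p = 0.322, DESeq2 adjusted p = 0.012). Beside Gata3, epithelial markers summed to 23938.1 to 46187.3 normalized counts at 11 weeks and 7709.1 to 11419.3 at 8 weeks, with 11 of 12 positive and a median of 1.88, and Csn3 was the 1 gene that passed. The part of epithelial RNA in the Gata3 values was not tested.

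Neutrophil markers summed to 2972.7 to 3454.1 normalized counts at 11 weeks and 224.7 to 555.6 at 8 weeks, led by S100a9, with 7 of 7 tested positive, Elane at 0 in every library and a median of 2.73. Cebpb is also expressed in neutrophils. Its 3 values at 11 weeks stayed within those at 8 weeks apart from the lowest, 382.1 beside 393.7. Dendritic cell markers summed to 4238.8 to 5722.9 at 11 weeks and 5749.4 to 7355.5 at 8 weeks, with 4 of 10 positive and a median of -0.23, led by Cd209a (limma adjusted p = 0.715). B and plasma cell markers had 4 of 7 tested positive and a median of 2.03, with Mzb1 at 0 throughout. T and NK cell markers summed to 2585.7 to 3852 at 11 weeks and 3935.7 to 5053.8 at 8 weeks. Most of each sum was Cd4, at 1645 to 3070.8, so the sums say little about the other markers. Of the T and NK cell markers 6 of 10 were positive, with a median of 0.91, opposite in sign to the change in the sum. The median was the same with Gzma, at 0 in all 8-week libraries, set at the bound that 3 reads over an age allow. Fibroblast and endothelial markers, led by Col3a1, summed to 1742.9 to 3694.2 at 11 weeks and 722.5 to 1350.8 at 8 weeks, with 7 of 9 positive and a median of 1.52. The part of these cells in the values of the 9 factors was not tested.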

How the data were processed

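RNA of sorted macrophages was sequenced at 11 and 8 weeks, in 3 libraries each. Per the labels' protocols, small amounts of RNA were amplified and tagged with a transposase. STAR 2.4, DESeq2 1.6 and the GRCm38 build appear in the submitters' processing notes, and the counting tool was not given in those sources. The authors' deposited file has 1 signal value per gene and library, which the values show to be read counts over 1 size factor, and the authors' comparison as log2 fold change, linear fold ratio, p-value and adjusted p-value. Whole reads were recovered within 0.05 normalized counts for at least 99.6% of nonzero values.

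The main test was limma (mean trend, robust moderation) on log2(normalized count + 1), 11 minus 8 weeks, over genes with a mean of at least 1 in either age, with Benjamini-Hochberg adjustment at 0.05. A pseudocount of 1 understates changes of low genes. edgeR quasi-likelihood with TMM, DESeq2 and limma-voom were run on the recovered reads, the first and last after edgeR's expression filter, and all were tested on simulated data. One planned ratio and 1 list gene are not reported here. Members and lists were chosen with earlier results of these data known. Beside the members, the text names the gene of smallest p and any called gene of each regulator or target gene list. It also names ratio partners, the most alike gene, and the most abundant gene of each marker list. Names outside this rule (Itgam, Epcam, Krt8, Ltf and Prdm1, and genes that overlap members or are at 0) were chosen after their values were seen. Of the deposited genes 42462 were found in GENCODE M21 (GRCm38), which gave exon lengths. Versions were Python 3.11.15 with scipy 1.17.1, numpy 2.4.6, pandas 2.3.3 and matplotlib 3.10.9, and R 4.3.3 with DESeq2 1.42.0, edgeR 4.0.16 and limma 3.58.1.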

Additional observations from a re-analysis of the deposited data

How the results depend on the processing

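Under 16 alternatives none of the 9 factors passed an adjusted p of 0.05, and the smallest adjusted p was 0.702. At an unadjusted p under 0.05 the count of factors was 0 to 1 when 1 library was left out. Of 144 member values, 17 changed sign, none in Irf4, Irf5 or Runx1. Spi1 was at -0.016 with limma-voom, -0.079 with scaling to library totals and -0.0025 with TMM scaling, and Irf8 at 0.0075 with edgeR and 0.013 with DESeq2. Leaving out 1 library gave -0.13 to 0.17 for Spi1, -0.34 to 0.017 for Cebpa, -0.44 to 0.11 for Cebpb, -0.14 to 0.12 for Maf, -0.25 to 0.23 for Irf8 and -0.21 to 0.081 for Zeb2. It gave log2 differences of -0.32 to 0.45 for the Cebpb to Cebpa ratio, -0.21 to 0.60 for Irf8 to Irf4 and -0.033 to 0.27 for Irf8 to Irf5. Genes called in the regulator and target gene lists numbered 4 with DESeq2 (Tfec, Cbfa2t3, Gata3 and, from the target genes, Cd14). The main test called 0 of them, and the cause was not tested. In the order given above, the lists held 6, 5, 12, 7, 6, 7, 25, 25, 7 and 11 genes tested by limma. Of all genes with an adjusted p, DESeq2 called 2.63% and limma 0.0507%. Over all genes, limma called 11, edgeR 3, DESeq2 418, limma after scaling to totals 4 and with a pseudocount of 8 it called 5. Leaving out 1 library gave 0 to 8, 0 when it was replicate 1 of either age or replicate 3 of 11 weeks, and 1 when it was replicate 2 or 3 of 8 weeks. With the shared replicate number as a block 45 genes were called and 0 of the 9 factors. Deviations of same-numbered libraries correlated at -0.02, -0.01 and -0.01, so the numbers were not taken as pairs.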
